A study of Oryza sativa with 14 samples.

Results

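Seedlings of 2 unmodified rice cultivars, Estrela A and Bengal, were compared across the probe sets of a rice expression microarray. The comparison rests on 4 of the 14 arrays of the series, 2 of Estrela A and 2 of Bengal, chosen by their labels as the controls of a stable mutant line and of a stable transgenic line. Of 57381 probe sets in the table, 57194 were tested and 187 control probe sets (spikes and reporters) were left out. Each array held RNA from 1 pool of 6 whole seedlings. The seedlings were 12 days old and grew at 28 °C in Yoshida's medium without hygromycin B, kept dark for the first 2 days and then given 12 h of light a day for 10 days. Both cultivars belong to Oryza sativa ssp. japonica, and the cultivar name is all the labels give of their genotype. A second pair of groups carried the same cultivar names on 4 other arrays: the stable mutant, a line from gamma irradiation of Estrela A that had been selfed for many generations, and the stable transgenic line, which is Bengal carrying an antibody transgene, in its T3 generation, and was given hygromycin B at 30 mg per L. That pair therefore differed by mutation, transgene and antibiotic as well as by cultivar. Nipponbare controls, 2 arrays of the cultivar that served as the rice reference genome, are cited for level alone. The labels number the pools of a group as replicates and do not say whether they were sown apart. Each p-value here rests on the spread from pool to pool, which may be in part technical. That spread was estimated over all 14 arrays, in 7 groups, and not from the Estrela A and Bengal pools alone. The remaining groups were an unstable mutant from gamma irradiation and an unstable transgenic line given hygromycin B at 30 mg per L.

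Rice cultivars differ by sequence variants that change promoters, coding regions and whole gene copies, and seedling transcriptomes differ between them at genes of defence, stress, hormone and photosynthetic function. Short oligonucleotide arrays read such differences through probes designed on reference transcripts. A probe set can read low in a cultivar because the transcript is scarce, because the gene is missing, or because the transcript differs in sequence beneath the probes, and these cannot be told apart from the signal of 1 probe set. In whole seedlings, fewer cells of a type and less RNA per cell cannot be told apart either.

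The 4 arrays had medians between 5.83 and 5.86 on the log2 scale of Robust Multichip Average (RMA) signal. Pearson correlation over all tested probe sets was 0.9966 between the Estrela A arrays and 0.9958 between the Bengal arrays, against 0.9738 to 0.975 for the 4 pairs made of 1 array of each cultivar. Root, shoot and grain marker lists had like mean levels on every array: root markers averaged 7.23 and 7.28 in Estrela A, against 7.37 and 7.36 in Bengal, and shoot markers averaged 10.27 and 10.39 in Estrela A, against 10.24 and 10.35 in Bengal. Of these, 5 of 13 root markers and 2 of 19 shoot markers were no brighter than reporter probe sets on each of the 4 arrays. The grain list averaged 5.92 on both Estrela A arrays, against 5.94 and 5.84 on the Bengal arrays, and 7 of its 12 members were at the level of reporter probe sets on each of the 4 arrays. Poly-A spike controls, bacterial transcripts added to the RNA before labelling, moved with the cultivar: all 12 of their probe sets were higher on both Estrela A arrays than on both Bengal arrays, by a median of 0.63 log2 (range 0.46 to 0.86), with mean levels of 8.85 and 8.84 in Estrela A, against 8.13 and 8.29 in Bengal. Their part in the results below was not tested.

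Between the cultivars, 5433 of 57194 probe sets (9.5%) passed limma's moderated test at a Benjamini-Hochberg adjusted p below 0.05. Of these, 3151 were higher in Estrela A (5.51% of those tested) and 2282 were lower (3.99%). Differences of at least 2-fold were called for 801 higher and 920 lower probe sets (3.01% together), of at least 8-fold for 153 higher and 218 lower ones (0.649% together), and of at least 32-fold for 50 higher and 74 lower ones. Higher calls made up 58.0% of all calls, whereas lower calls outnumbered higher ones past 2-fold. The median difference over all probe sets was 0.0 log2, the median size of a called difference was 0.73 log2, and the median standard error was 0.13 log2. With 2 arrays a group, the arrays of the cultivars did not overlap at 49.0% of all probe sets, so non-overlap alone marks nothing. Taking 1 probe set per gene, 2596 of 17905 genes were called (14.5%), 1553 higher (8.67%) and 1043 lower (5.83%). The count of called probe sets was 3188 and 3420 when Estrela A replicate 1 or 2 was left out, and 3306 and 3544 when Bengal replicate 1 or 2 was left out, where the cultivar's remaining array is taken to vary as the other groups do.

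Among the 2457 genes known by a symbol, 352 were called (14.3%). The largest rise was in BURP17 (LOC4349896), which encodes a BURP-domain protein of a plant-specific cell wall family. Its log2 signal was 14.06 and 14.15 in Estrela A, against 4.37 and 4.71 in Bengal, a 757-fold difference (log2 9.57, SE 0.2, adjusted p = 1.9e-11 by limma). This is near the top of the array's scale in one cultivar and at the level of the reporter probe sets in the other, and Nipponbare read 13.18 on average. Background is taken here as 5.96, the highest 95th percentile of the reporter probe sets. Where both arrays of a cultivar were at or below it, a fold printed here is a ratio of signals. Each bound printed with such a fold is a bound on signal too. It bounds the transcript only if the probes read both cultivars alike, which was not tested. Set against 5.96, BURP17 was at least 283-fold higher in signal, EIL1B at least 18.9-fold, OPR10 at least 9.38-fold and APX5 at least 4.5-fold. EIL1B (LOC4332697), a transcription factor of the EIN3-like family that carries ethylene signals, read 10.37 and 10.03 in Estrela A, against 4.67 and 4.55 in Bengal (48.2-fold, SE 0.2 log2, adjusted p = 2.22e-09). OPR10 (LOC4340486), of the oxophytodienoate reductase family to which the jasmonate-forming enzyme belongs, read 9.37 and 9.01 in Estrela A, against 4.73 and 5.01 in Bengal (20.0-fold, SE 0.19, adjusted p = 1.34e-08). The ascorbate peroxidase gene APX5 (LOC4351664) read 8.02 and 8.24 in Estrela A, against 4.77 and 4.91 in Bengal (9.78-fold, SE 0.11, adjusted p = 9.43e-10). In each of these the Bengal arrays lay at background and Nipponbare sided with Estrela A, at 10.18 for EIL1B, 8.65 for OPR10 and 7.92 for APX5.

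Further rises reached mid-range levels. ASMT (LOC4346795), the acetylserotonin methyltransferase of melatonin synthesis, read 7.8 and 7.92 in Estrela A, against 5.01 and 5.1 in Bengal (6.99-fold, adjusted p = 7.79e-06), and Nipponbare was higher than both at 10.27. The small heat shock protein gene HSP16.9B (LOC4325698) read 7.24 and 6.99 in Estrela A, against 4.37 and 4.3 in Bengal (6.87-fold, adjusted p = 1.4e-08). COA26 (LOC4345936) was 4.53-fold higher in Estrela A (6.47 and 6.27 in Estrela A, 3.98 and 4.4 in Bengal, adjusted p = 1.16e-05). OsPRDA1 (LOC4350378), named for a factor of the plastid-encoded RNA polymerase, was 3.89-fold higher (10.67 and 10.65 in Estrela A, 8.62 and 8.78 in Bengal). A second OsPRDA1 probe set lay at background in both cultivars (difference 0.14 log2), with Nipponbare at 9.05. The plasma membrane aquaporin gene OsPIP2;4 (LOC4343119) was 3.73-fold higher, the histone gene H2B.10 (LOC4324495) 3.64-fold higher, and ASY1 (LOC4347514), a meiotic chromosome axis gene also called PAIR2, 3.64-fold higher. SWEET12 (LOC4332825), of the sugar exporter family, differed by as much as COA26, but its Estrela A arrays read 6.75 and 7.96, against 5.19 and 5.16 in Bengal, and the SE was 0.51 log2. Its adjusted p was 0.018 with all arrays and 0.172 without Estrela A replicate 2, and the call was also lost without either Bengal array. Bengal was at background for ASMT, HSP16.9B, COA26 and SWEET12, and against 5.96 their rises were at least 3.73-fold, 2.23-fold, 1.33-fold and 2.63-fold in that order.

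**Figure D1:**
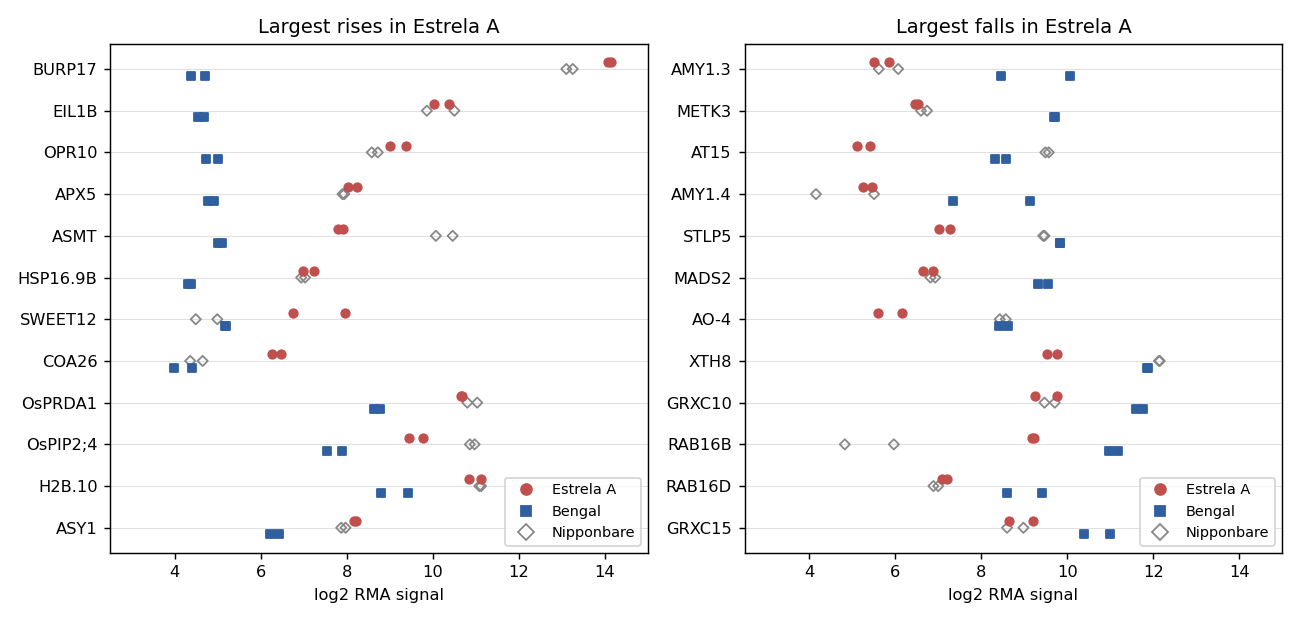
Log2 RMA signal on each array for the 12 symbol-named genes with the largest rise (left panel) and the 12 with the largest fall (right panel) in Estrela A, with Estrela A as circles, Bengal as squares and Nipponbare as open diamonds for level. BURP17 stands at 14.06 and 14.15 in Estrela A and at 4.37 and 4.71 in Bengal, and the widest spread between arrays of 1 cultivar among these genes is in the Bengal arrays of AMY1.3 and AMY1.4.

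Among the falls of genes with a symbol, AMY1.3 (LOC4345814) and AMY1.4 (LOC4345812) encode alpha-amylases, the secreted enzymes that break starch to sugar in germinating grain and in sugar-starved cells. AMY1.3 read 5.85 and 5.5 in Estrela A, against 10.07 and 8.47 in Bengal (12.1-fold lower, log2 -3.6, SE 0.37, adjusted p = 4.22e-05). AMY1.4 read 5.46 and 5.26 in Estrela A, against 9.14 and 7.35 in Bengal (7.39-fold lower, SE 0.59, adjusted p = 0.00846). In both, Bengal replicate 1 was the higher array, and without it the adjusted p of AMY1.4 was 0.0932. The AMY1.4 call was also lost without Estrela A replicate 2. A second AMY1.3 probe set lay at background in both cultivars (difference -0.03 log2). METK3 (LOC4325163), an S-adenosylmethionine synthetase, read 6.53 and 6.46 in Estrela A, against 9.69 and 9.72 in Bengal (9.25-fold lower, SE 0.14, adjusted p = 1.5e-08). The acyltransferase gene AT15 (LOC4347960) read 5.42 and 5.11 in Estrela A, against 8.57 and 8.33 in Bengal (9.09-fold lower, adjusted p = 2.31e-07). For METK3 the Nipponbare level, 6.67, was that of Estrela A, whereas for AT15 it was 9.53, above Bengal. Estrela A was at background for AMY1.3, AMY1.4 and AT15, which were at least 9.92-fold, 4.87-fold and 5.62-fold lower against 5.96 in that order.

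MADS2 (LOC4325001), a floral homeotic gene of the PISTILLATA lineage, read 6.65 and 6.89 in Estrela A, against 9.55 and 9.33 in Bengal (6.36-fold lower, SE 0.13, adjusted p = 2.67e-08). STLP5 (LOC4350756) was 6.39-fold lower (7.03 and 7.28 in Estrela A, 9.82 and 9.84 in Bengal, adjusted p = 1.53e-08). AO-4 (LOC4342932) was 6.23-fold lower, and each of its 4 probe sets was called lower, with log2 differences from -0.73 to -3.75. XTH8 (LOC4345019), of the enzymes that cut and rejoin xyloglucan chains in growing walls, read 9.76 and 9.53 in Estrela A, against 11.88 and 11.85 in Bengal (4.66-fold lower, SE 0.1, adjusted p = 1.51e-08). The glutaredoxin genes GRXC10 (LOC4351046) and GRXC15 (LOC4352426) were 4.48-fold and 3.4-fold lower. RAB16B and RAB16D, dehydrin genes that are textbook targets of abscisic acid, were 3.67-fold and 3.66-fold lower.

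Of the genes known by an identifier alone, 3 rises and 3 falls are given. Each had 1 cultivar below 5.96, so a bound stands beside the fold of the signals for all but LOC4328727. LOC4326061 read 13.11 and 13.08 in Estrela A, against 4.18 and 4.06 in Bengal (503-fold higher in signal, at least 141-fold against 5.96, SE 0.12 log2), and its 3 probe sets were each called higher, by 7.5 to 8.98 log2. LOC4341377 read 13.91 and 13.83 in Estrela A, against 5.33 and 5.3 in Bengal (376-fold higher, at least 241-fold), and LOC9271452 was 315-fold higher (at least 52.5-fold). In the other direction, LOC4328727 read 4.76 and 4.59 in Estrela A, against 12.81 and 13.01 in Bengal (301-fold lower), and each of its 4 probe sets was called lower, by -3.68 to -8.24 log2. LOC4349197 and LOC4348034 were each 152-fold lower in signal, at least 75.8-fold and at least 21.9-fold. Nipponbare was high for all 6 of these genes, between 9.62 and 14.07, so in each it matched the cultivar with the high signal.

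Probe sets with no gene in the annotation held the largest fall of the whole array. That probe set read 3.74 and 3.7 in Estrela A, against 13.6 and 13.84 in Bengal, a difference of -10.0 log2 (SE 0.24, adjusted p = 4.37e-11, at least 217-fold lower against 5.96), with Nipponbare at 13.29. The largest rise among probe sets without a gene was in one that read 12.7 and 12.47 in Estrela A, against 3.2 and 3.4 in Bengal (log2 9.29, at least 98.7-fold higher), and here Nipponbare, at 3.56, read as low as Bengal. Nipponbare was likewise low, at 4.19, for the second largest fall among them, which read 4.04 and 4.26 in Estrela A, against 12.9 and 12.67 in Bengal.

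Such all-or-none patterns were counted with a rule set after the data were seen: both arrays of one cultivar at or above 8 log2, both arrays of the other at or below 5.96, the highest 95th percentile of the 64 reporter probe sets on these arrays, and the difference called. By this rule 107 probe sets were high in Estrela A and at background in Bengal, and 147 were at background in Estrela A and high in Bengal. Of the 107, Nipponbare was high for 53, at background for 25 and between for 29. Of the 147, Nipponbare was high for 87, at background for 27 and between for 33. No gene was assigned to 54.2% of the first set and 50.3% of the second, against 60.6% of all tested probe sets. Genes with a symbol in the first set were BURP17, EIL1B, OPR10 and APX5, and in the second AMY1.3, AT15 and Cht2, a chitinase gene. Cht2 was in the set by 1 of its 3 probe sets. Another read 9.49 and 9.06 in Estrela A and was not called, and the last was called higher in Estrela A. The same pattern on the arrays of the modified lines was seen for 82.2% of the first set and 84.4% of the second.

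Gene lists by function held 1010 of the 17905 genes, of which 144 were called. These lists were drawn up by gene symbol with earlier results of these data known, so their counts are descriptions. The background is 8.67% of all genes higher and 5.83% lower in Estrela A, and the median difference of all genes is 0.01 log2.

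Of 20 measured genes of photosynthesis and chlorophyll synthesis, 8 were called higher in Estrela A, 0 lower and 12 did not pass, with a list median of 0.3 log2 and a lowest member of -0.13. The largest rise was in PORA, the light-dependent protochlorophyllide reductase that greens dark-grown seedlings, which read 11.17 and 11.41 in Estrela A, against 10.26 and 10.0 in Bengal (2.23-fold, SE 0.19 log2, adjusted p = 0.00184). LFNR1, the leaf ferredoxin-NADP reductase at the end of the electron transport chain, read 11.4 and 11.39 in Estrela A, against 10.26 and 10.45 in Bengal (2.06-fold, SE 0.11, adjusted p = 6.86e-05). LHCP, a chlorophyll a/b-binding protein of the light-harvesting antenna, read 13.88 and 13.86 in Estrela A, against 13.24 and 13.39 in Bengal (1.47-fold, SE 0.09, adjusted p = 0.00143). The magnesium chelatase subunit genes CHLH and CHLD rose 1.39-fold and 1.27-fold, the chlorophyll b-forming oxygenase gene CAO 1.29-fold, the photosystem I subunit gene PSAG 1.29-fold, and GLK1, a transcription factor of chloroplast development, 1.3-fold. These smaller calls rested on the arrays used: 3 members were called without Estrela A replicate 1, 3 without Estrela A replicate 2, 4 without Bengal replicate 1 and 5 without Bengal replicate 2, 3 in a fit of the 4 Estrela A and Bengal arrays alone, 4 with the replicate number as a block, and for CHLH the adjusted p was 0.292 without Bengal replicate 1. Nipponbare was below Estrela A for PORA, at 10.41, and above it for LFNR1, at 11.97. The shoot marker list, which shares PORA, LFNR1, LHCP and GLK1, had 4 higher and 2 lower members of 19, the lower ones being the YABBY leaf-polarity genes OsYAB5 (1.71-fold) and YAB1 (1.47-fold). The 13 root markers held 0 called members, by limma, with 1 at an unadjusted p below 0.05, and the 2 largest differences were -0.73 log2 for NAR2.2 and -0.46 log2 for SCR1.

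**Figure D2:**
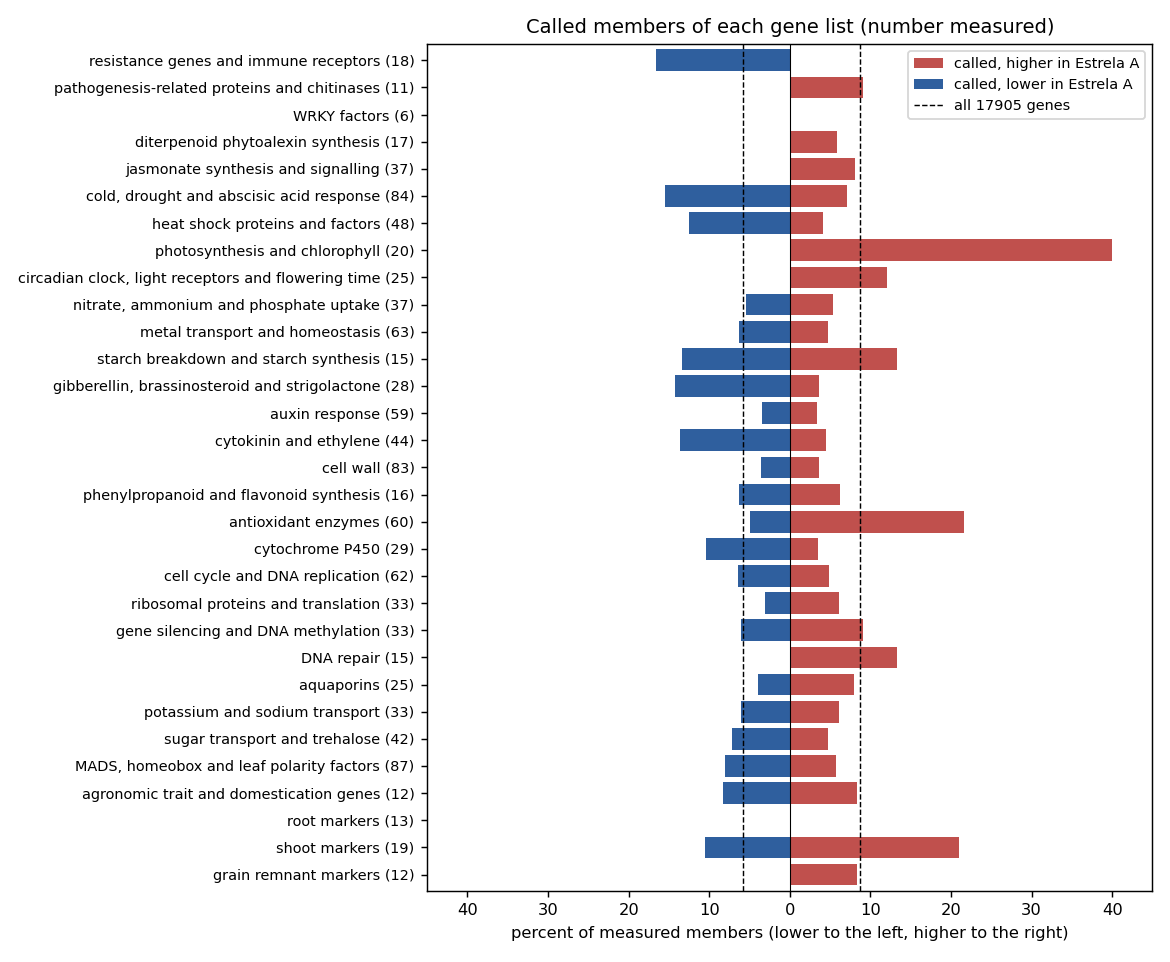
Percent of the measured members of each gene list that were called higher (bars to the right) or lower (bars to the left) in Estrela A than in Bengal, with the number of measured members in brackets and dashed lines at the shares over all 17905 genes, 8.67% and 5.83%. The longest bar is that of photosynthesis and chlorophyll, with 8 of 20 members higher.

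Light receptor, clock and flowering genes had 3 higher and 0 lower members of 25. MADS56, a flowering regulator of the SOC1 lineage, read 10.73 and 10.39 in Estrela A, against 9.23 and 9.36 in Bengal (2.4-fold, SE 0.17, adjusted p = 0.000483). CRYD of the cryptochrome family rose 1.72-fold and the phototropin gene PHOT2 1.34-fold, and both calls were lost without Bengal replicate 1 (adjusted p 0.229 and 0.199) and without either Estrela A array. MADS-box, homeobox and leaf-polarity factors had 5 higher and 7 lower members of 87. MADS55, of the SVP lineage, read 9.28 and 8.83 in Estrela A, against 7.46 and 7.19 in Bengal (3.32-fold, SE 0.16, adjusted p = 1.6e-05), and MADS57, of the AGL17 lineage, was called higher (5.77 and 5.87 in Estrela A, 4.7 and 4.57 in Bengal, both at background). Thus MADS55, MADS56 and MADS57 were higher in Estrela A, while MADS2, described above, was lower. The homeobox gene HOX12 was 2.04-fold higher (9.48 and 8.97 in Estrela A, 7.94 and 8.45 in Bengal, adjusted p = 0.0153). The lower count of this list was 4 without either Estrela A array or without Bengal replicate 1, and 5 without Bengal replicate 2, while the higher count was 3 without Estrela A replicate 1 or Bengal replicate 1, 5 without Estrela A replicate 2 and 4 without Bengal replicate 2.

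Antioxidant enzymes had 13 higher and 3 lower members of 60, with a list median of 0.13 log2. Beside APX5, the cytosolic ascorbate peroxidase gene APX1 read 13.17 and 13.12 in Estrela A, against 12.57 and 12.62 in Bengal (1.46-fold, adjusted p = 0.00922). The chloroplast peroxiredoxin gene PRXIIE-2 read 9.98 and 10.11 in Estrela A, against 9.06 and 8.87 in Bengal (2.11-fold, SE 0.1, adjusted p = 2.41e-05). The glutaredoxin gene GRXS2 rose 2.06-fold and the superoxide dismutase gene sodCp 1.44-fold, and 6 thioredoxin genes rose, among them OsTrx03 (1.84-fold) and OsCiTrx (1.63-fold). PRXIIE-1, a second peroxiredoxin of the same type, rose 1.48-fold (10.96 and 11.04 in Estrela A, 10.38 and 10.48 in Bengal, adjusted p = 0.00591). The falls were in GRXC10, which read 9.25 and 9.77 in Estrela A, against 11.59 and 11.76 in Bengal, in GRXC15, which read 8.65 and 9.2 in Estrela A, against 10.39 and 10.99 in Bengal, and in the manganese superoxide dismutase gene RMSOD1 (1.34-fold lower). Counts with 1 array left out were 9 higher and 2 lower without Estrela A replicate 1, 8 and 3 without Estrela A replicate 2, 7 and 4 without Bengal replicate 1, and 10 and 3 without Bengal replicate 2.

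Cold, drought and abscisic acid genes moved both ways, with 6 higher and 13 lower members of 84 and a list median of -0.1 log2. Protein phosphatase 2C genes, taken into the list by symbol, gave most of the calls. Clade A of this family switches off abscisic acid signalling, but clades were not assigned here, so these calls are not read as changes in that pathway. OsPP2C01 read 10.41 and 10.48 in Estrela A, against 8.64 and 8.77 in Bengal (3.34-fold higher, SE 0.12, adjusted p = 1.01e-06). OsPP2C75 was 2.99-fold, OsPP2C16 2.64-fold and OsPP2C67 2.56-fold higher, whereas OsPP2C61 was 2.79-fold and OsPP2C59 2.38-fold lower. The dehydrins that passed were lower: RAB16B read 9.18 and 9.23 in Estrela A, against 10.97 and 11.19 in Bengal, RAB16D read 7.08 and 7.21 in Estrela A, against 8.61 and 9.42 in Bengal, and Dhn1 fell 1.58-fold. RAB16C, from the same gene cluster, read 8.7 and 8.84 in Estrela A, against 9.32 and 10.24 in Bengal, and did not pass (adjusted p = 0.236). The SnRK2 kinase genes SAPK9 and SAPK6, of a family that acts in abscisic acid signalling, were 1.72-fold and 1.41-fold lower. The RAB16B call, with adjusted p = 0.0288 and an SE of 0.48 log2, was lost without any 1 of the 4 arrays, up to an adjusted p of 0.149 without Bengal replicate 2. The RAB16D call was lost without Bengal replicate 2 (adjusted p 0.106) and without either Estrela A array. The number of lower members was 4 without Estrela A replicate 1, 6 without Estrela A replicate 2, 8 without Bengal replicate 1 and 4 without Bengal replicate 2.

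Heat shock proteins and factors had 2 higher and 6 lower members of 48. HSP16.9A, a close relative of HSP16.9B, read 8.08 and 8.19 in Estrela A, against 7.03 and 6.9 in Bengal (2.25-fold, SE 0.16, adjusted p = 0.00059), so both genes of the pair rose. The small heat shock genes HSP18.6 and HSP17.9A were 1.87-fold and 1.68-fold lower, the factor genes HSF23 and HSF03 1.81-fold and 1.78-fold lower, and the Hsp90 gene HSP81-3 1.27-fold lower. The lower count was 2 without variance moderation and 3 without shared probe sets. With 1 array left out it was 1 (either Estrela A array) or 2 (either Bengal array), and the HSP18.6 and HSF23 calls were lost each time, with the highest adjusted p, 0.0964 and 0.12, without Estrela A replicate 1.

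In the gibberellin, brassinosteroid and strigolactone list 1 member of 28 rose and 4 fell. GA20OX2, the gibberellin 20-oxidase that is the semidwarf locus sd1 of rice breeding, read 7.9 and 8.02 in Estrela A, against 6.76 and 6.65 in Bengal (2.39-fold, SE 0.16, adjusted p = 0.000207), with Nipponbare at 6.82. CPS1, the copalyl diphosphate synthase that opens gibberellin synthesis, read 4.56 and 5.77 in Estrela A, against 6.79 and 6.63 in Bengal. It was 2.92-fold lower in signal (SE 0.29, adjusted p = 0.00444). Estrela A was at background for CPS1, and the bound was at least 1.68-fold lower. The kaurenoic acid oxidase gene KAO, a middle step, was 1.59-fold lower, CYP714C2, of a cytochrome P450 family that modifies gibberellins, 1.66-fold lower, and SLR1, the DELLA repressor of gibberellin responses, 1.56-fold lower (9.08 and 9.11 in Estrela A, 9.71 and 9.76 in Bengal, adjusted p = 0.00269). The KAO call was lost without Estrela A replicate 1 (adjusted p 0.103) or Bengal replicate 1, and that of CYP714C2 without Estrela A replicate 1 (0.0931) or Bengal replicate 2. Of the agronomic trait genes, 12 in number, GA20OX2 rose and IPA1, the ideal plant architecture gene, was 1.68-fold lower, a call lost without any 1 array (adjusted p up to 0.187).

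The cytokinin and ethylene list had 2 higher and 6 lower members of 44. Apart from EIL1B, the calls fell on cytokinin genes: LOGL9, of the enzymes that release active cytokinin, read 8.87 and 8.56 in Estrela A, against 9.83 and 9.98 in Bengal (2.28-fold lower, SE 0.17, adjusted p = 0.000838). The type A response regulator genes RR4, RR6 and RR9, which cytokinin induces, were 2.05-fold, 1.77-fold and 1.65-fold lower, the cytokinin oxidase genes CKX5 and CKX4 1.69-fold and 1.6-fold lower, and the receptor kinase gene HK3 1.35-fold higher. Without variance moderation the list had 1 higher and 2 lower calls. With 1 array left out, the lower calls were 1 to 3: 2 without Estrela A replicate 1, 3 without Estrela A replicate 2, 1 without Bengal replicate 1 and 3 without Bengal replicate 2. Auxin response genes had 2 higher and 2 lower members of 59, against 6 and 5 with the filter on dim probe sets or the median over a gene's probe sets, and 5 and 3 with a trended robust prior. IAA3, an Aux/IAA repressor of auxin response, read 13.4 and 13.34 in Estrela A, against 11.58 and 11.6 in Bengal (3.43-fold, SE 0.09, adjusted p = 3.31e-08). Another IAA3 probe set sat at background in both cultivars (difference -0.03 log2). OsPIN5a, of the PIN auxin carriers, read 9.84 and 9.97 in Estrela A, against 7.91 and 8.55 in Bengal (3.19-fold, SE 0.27, adjusted p = 0.00157). The Aux/IAA genes IAA1 and IAA10 were 1.34-fold and 1.31-fold lower, and both calls were lost without any 1 of the 4 arrays (adjusted p up to 0.204 and 0.286).

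Jasmonate genes had 3 higher and 0 lower members of 37, and this balance depended on the fit: it was 2 higher and 5 lower with the 4 Estrela A and Bengal arrays alone, 2 and 1 with the replicate block, and 1 and 2 without Bengal replicate 1. Besides OPR10, these were the allene oxide synthase gene AOS3 (1.78-fold) and OPR7 (1.27-fold), both of which lost their call without any 1 of the 4 arrays, with adjusted p up to 0.209 and 0.222. Some other members had differences past 2-fold without passing, with values below Bengal's. JAZ9, a repressor that jasmonate itself induces, read 4.86 and 4.67 in Estrela A, against 6.3 and 6.39 in Bengal (adjusted p = 0.262). JAZ10 read 7.4 and 7.47 in Estrela A, against 8.4 and 8.7 in Bengal (adjusted p = 0.112). The lipoxygenase gene LOX3 read 5.48 and 6.21 in Estrela A, against 6.54 and 7.92 in Bengal (adjusted p = 0.0949). The SE of JAZ9, 0.74 log2, draws on the spread of all 7 groups. Its SD was 0.13 in Estrela A and 0.06 in Bengal, so its failure to pass was not set by these arrays alone. Between the stable mutant and the stable transgenic line JAZ9 differed by -1.33 log2 and did not pass by limma (adjusted p = 0.309).

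Immune receptors and signalling genes had 0 higher and 3 lower members of 18 (16.7% called, against 14.5% of all genes), and 5 lower with a trended prior, the dim filter, cyclic loess or the gene median. NH4 and NH2, relatives of the salicylic acid receptor NPR1, were 1.69-fold and 1.42-fold lower, and PIK6-NP, a nucleotide-binding immune receptor gene, was called lower at background level (4.07 and 4.01 in Estrela A, 4.4 and 4.87 in Bengal). A second PIK6-NP probe set differed by 0.22 log2 in the other direction without passing, and the first lost its call without Bengal replicate 2 (adjusted p 0.144) and without either Estrela A array. Pathogenesis-related genes and chitinases had 1 higher member of 11, the chitinase gene RC24 (1.74-fold), whose call was lost without any 1 array. Another chitinase gene, chia4a, read 12.63 and 12.84 in Estrela A, against 11.95 and 11.52 in Bengal, and just missed the threshold (adjusted p = 0.0588). Of the 6 WRKY factor genes none passed by limma and 0 had an unadjusted p below 0.05, the largest differences being -0.7 log2 for WRKY62 and -0.49 log2 for WRKY76. Diterpenoid phytoalexin genes had 1 higher member of 17, KS6 (with both cultivars at background), and 0 higher and 2 lower with the 4 Estrela A and Bengal arrays alone. The KS6 call was lost without Bengal replicate 2 (adjusted p 0.253) and without either Estrela A array. The cytochrome P450 list had 1 higher and 3 lower members of 29, led by CYP71P1, the tryptamine 5-hydroxylase that makes serotonin. It read 9.89 and 9.59 in Estrela A, against 10.61 and 11.14 in Bengal (2.2-fold lower, adjusted p = 0.0222, and 0.184 without Bengal replicate 2). Its call was lost also without either Estrela A array, and ASMT, which acts later in the same indoleamine route, differed the other way.

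Starch genes had 2 higher and 2 lower members of 15. The falls were in AMY1.3 and AMY1.4, and the rises in the soluble starch synthase genes SSII-2 (1.72-fold) and SSII-1 (1.26-fold). Another alpha-amylase gene, AMY1.1, read 7.76 and 8.38 in Estrela A, against 13.06 and 10.57 in Bengal, a difference of -3.75 log2 with an SE of 1.12 that did not pass (adjusted p = 0.0602). These 3 amylase genes, picked by their differences, were lower on both Estrela A arrays than on both Bengal arrays. The cultivars' arrays did not overlap at 49.0% of all probe sets, so this marks nothing by itself. All 3 were higher in Bengal replicate 1 than in Bengal replicate 2. SSII-2 lost its call without Estrela A replicate 2 or Bengal replicate 1 (adjusted p 0.0574), and SSII-1 without any 1 array. Sugar transport and trehalose genes had 2 higher and 3 lower members of 42. Lower were the sucrose synthase gene SUS5, which read 8.01 and 8.27 in Estrela A, against 9.35 and 9.4 in Bengal (2.35-fold, SE 0.21, adjusted p = 0.00206), the sucrose phosphate synthase gene OsSPS4F (2.0-fold, adjusted p = 3.01e-05) and the cell wall invertase gene CIN1 (1.92-fold, adjusted p = 0.000485). These enzymes make or split sucrose. The higher members were SWEET12 and SPS2 (1.24-fold), of which 1 was called without Estrela A replicate 1 and 0 without any other of the 4 arrays.

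Metal transport genes had 3 higher and 4 lower members of 63. MTP4, of the metal tolerance transporters, read 4.62 and 4.22 in Estrela A, against 6.2 and 6.07 in Bengal. It was 3.28-fold lower in signal (SE 0.21, adjusted p = 0.000176). Estrela A was at background for MTP4, and the bound was at least 1.13-fold lower. The second MTP4 probe set, at -0.27 log2, did not pass. The metallothionein gene MT4A was 1.87-fold lower, the iron-response regulator gene BHLH063 1.72-fold lower, and the copper transporter gene COPT1 1.69-fold higher. The yellow stripe-like genes YSL6 and YSL5 rose 1.53-fold and 1.39-fold and YSL14 was 1.66-fold lower. MT4A lost its call without Estrela A replicate 2 (adjusted p 0.11) or Bengal replicate 2, and BHLH063 without Bengal replicate 2 (0.0675) or Estrela A replicate 1. NAS1 and NAS2 differed by more than any called member of the list and did not pass. NAS1, a nicotianamine synthase that iron shortage induces, read 4.03 and 4.05 in Estrela A, against 8.24 and 10.53 in Bengal, a difference of -5.35 log2 with an SE of 1.59 (adjusted p = 0.0585). NAS2, its neighbour, read 6.36 and 6.31 in Estrela A, against 8.39 and 10.44 in Bengal (adjusted p = 0.222), and the iron-phytosiderophore transporter gene YSL15 read 6.58 and 6.7 in Estrela A, against 7.22 and 8.1 in Bengal (adjusted p = 0.311). In these 3 genes, picked for differences past 2-fold, Estrela A pools lay below Bengal pools, and Bengal replicate 2 was the higher Bengal array. Arrays of the cultivars did not overlap at 49.0% of all probe sets. Stable transgenic arrays, also of Bengal, read 10.43 and 5.54 for NAS1, so arrays of 1 group differed by more than the cultivars' nearest arrays.

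Nitrate, ammonium and phosphate uptake genes had 2 higher and 2 lower members of 37, among them the ammonium transporter gene AMT2-1 (1.44-fold higher), the phosphate transporter gene OsPht1;4 (1.4-fold higher), the glutamine synthetase gene GLN1-3 (1.64-fold lower) and the phosphate sensor gene SPX4 (1.41-fold lower). Each of these 4 calls was lost when at least 1 single array was left out, with adjusted p up to 0.0567 for AMT2-1 (Bengal replicate 1), 0.178 for OsPht1;4 (Bengal replicate 2), 0.136 for GLN1-3 (Bengal replicate 2) and 0.09 for SPX4 (Estrela A replicate 2). Potassium and sodium transport genes had 2 higher and 2 lower members of 33, led by the potassium channel gene KCO2, which read 5.98 and 6.2 in Estrela A, against 7.19 and 7.03 in Bengal (2.03-fold lower, SE 0.17, adjusted p = 0.00214), and the calcium/proton exchanger gene CAX1a (1.74-fold higher, adjusted p = 0.000241). HAK7 and HAK23, of the potassium transporters, were 1.37-fold lower and 1.32-fold higher, and lost their calls without any 1 array for HAK7 (adjusted p up to 0.0946) and without any 1 but Estrela A replicate 2 for HAK23 (up to 0.254). Aquaporins had 2 higher and 1 lower members of 25. OsPIP2;4 read 9.45 and 9.76 in Estrela A, against 7.88 and 7.53 in Bengal (adjusted p = 7.36e-06), and OsSIP1;1 was 1.45-fold lower (adjusted p = 0.0015). NIP1-1 was 1.49-fold higher, a call lost without Bengal replicate 1 (adjusted p 0.192) or either Estrela A array.

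Cell wall genes had 3 higher and 3 lower members of 83, against 14.5% of all genes called (6 and 4 with the 4 Estrela A and Bengal arrays alone), with BURP17 and XTH8 at the extremes and the cellulose synthase-like genes CSLE1 (1.53-fold higher), CSLA5 (1.43-fold lower) and CSLH1 (1.31-fold lower) between. BURP2, of the family of BURP17, was 1.69-fold higher, and its call was lost without Bengal replicate 2 (adjusted p 0.153) or Estrela A replicate 1. CSLE1 lost its call without Estrela A replicate 1 (adjusted p 0.0637) or Bengal replicate 1. BC1L9, of the COBRA-like wall proteins, read 7.85 and 7.79 in Estrela A, against 8.69 and 9.83 in Bengal, and did not pass (adjusted p = 0.0541). Phenylpropanoid genes had 1 higher and 1 lower member of 16, both cinnamyl alcohol dehydrogenases of lignin synthesis: CAD6 was 2.12-fold lower (5.4 and 5.18 in Estrela A, 6.25 and 6.5 in Bengal, adjusted p = 0.00311) and CAD3 1.6-fold higher (adjusted p = 0.0134, and 0.129 without Bengal replicate 2, with the call lost also without Estrela A replicate 1).

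In gene silencing and DNA methylation, 3 members of 33 were higher and 2 lower. DCL2A, a Dicer-like enzyme that cuts viral and transposon RNA into small RNAs, read 9.18 and 9.36 in Estrela A, against 10.73 and 10.81 in Bengal (2.83-fold lower, SE 0.14, adjusted p = 2.05e-05), and its second probe set was 2.39-fold lower. The methyltransferase-like gene DRM3 read 10.34 and 10.43 in Estrela A, against 11.06 and 11.1 in Bengal (1.62-fold lower, adjusted p = 0.000324). One of its other 2 probe sets was also called lower, and the last differed by 0.17 log2 upward without passing. The Argonaute genes AGO17 and AGO4B, whose proteins hold small RNAs, were 1.69-fold and 1.3-fold higher, and the double-stranded RNA binding gene DRB4 1.33-fold higher. The list had 1 higher and 2 lower calls with the 4 Estrela A and Bengal arrays alone, and 5 and 3 with the dim filter or the gene median. The higher members numbered 1 without either Estrela A array, 0 without Bengal replicate 1 and 2 without Bengal replicate 2. Cell cycle and replication genes had 3 higher and 4 lower members of 62, led by the origin recognition complex gene ORC5, which read 7.0 and 7.46 in Estrela A, against 5.91 and 5.86 in Bengal (2.54-fold, SE 0.19, adjusted p = 0.000622). Another subunit of that complex, ORC2, was 1.51-fold lower, and its call was lost without Bengal replicate 1 and without either Estrela A array (adjusted p up to 0.0756). The whole list had 1 higher and 3 lower calls without Estrela A replicate 1, 2 and 0 without Estrela A replicate 2, 1 and 1 without Bengal replicate 1, and 2 and 2 without Bengal replicate 2. Ribosomal and translation genes had 2 higher and 1 lower members of 33 and DNA repair genes 2 higher and 0 lower members of 15, none of them changed past 1.5-fold. The ribosomal protein gene RPL27 (1.46-fold higher) lost its call without Estrela A replicate 2 (adjusted p 0.0526), and RPL7A-1 (1.35-fold lower) without any 1 array but that one (up to 0.103). RAD23, of nucleotide excision repair, and RPA14, a subunit of the single-strand DNA binding complex, lost theirs without any 1 array (up to 0.0841 and 0.226). RAD23 has 3 probe sets, of which 1 passed. Among the 12 grain markers, GLB, taken in by its symbol alone, was 1.71-fold higher and the other 11 were not called.

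Where a gene had several probe sets, they often did not move together. Of 3444 such genes, 843 had at least 1 called probe set. In 171 of these (20.3%) every probe set was called in 1 direction, in 650 (77.1%) some were called and some were not, and in 22 (2.61%) probe sets were called in opposite directions. LOC4349188 had the widest gap: one probe set read 10.81 and 10.65 in Estrela A, against 3.43 and 3.67 in Bengal (log2 7.18), and the other read 5.73 and 5.4 in Estrela A, against 9.94 and 10.04 in Bengal (log2 -4.43). Cht2 had 3 probe sets: the first read 7.29 and 6.96 in Estrela A, against 4.41 and 4.69 in Bengal, the second 3.36 and 3.37 in Estrela A, against 8.97 and 9.5 in Bengal, and the third, at 9.49 and 9.06 in Estrela A and 8.82 and 9.05 in Bengal, was not called (adjusted p = 0.595). LOC4324010 had probe sets at -5.69, 0.61 and 2.77 log2, each called. CLA1, the first enzyme of the plastid isoprenoid route, read 10.11 and 10.18 in Estrela A, against 9.58 and 9.58 in Bengal, with one probe set, and 4.53 and 5.04 in Estrela A, against 6.96 and 6.86 in Bengal, with the other. In such genes the cultivars are separated by probe set and not by 1 level of the gene, and no direction is given for the gene as a whole.

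**Figure D3:**
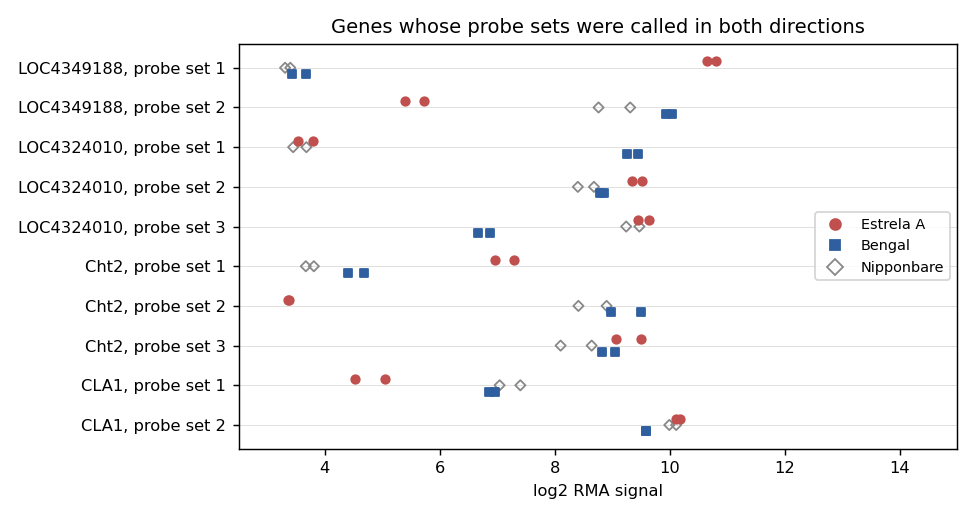
Log2 RMA signal on each array for the separate probe sets of 4 genes that were called in opposite directions, with Estrela A as circles, Bengal as squares and Nipponbare as open diamonds. The first probe set of LOC4349188 reads 10.81 and 10.65 in Estrela A and the second 5.73 and 5.4, with Bengal in the reverse order.

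Neighbours were compared in the gene order of the RefSeq gene table. After a called gene, the next measured gene was also called in 545 of 2593 cases (21.0%), and after a gene that was not called in 2050 of 15298 cases (13.4%). Where both neighbours were called, they were called in 1 direction in 363 pairs and in opposite directions in 182 (66.6% alike). These shares are given without a test, since neighbours can share probe sequence and gene family. Runs of at least 3 measured neighbours called 1 way numbered 61, 31 higher and 30 lower in Estrela A, and held 201 genes.

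One of the 3 longest runs in the higher direction held LOC4328397, LOC4328398, LOC4328399, LOC9266559 and LOC4328400, with no unmeasured gene between them. LOC4328398 read 9.16 and 9.02 in Estrela A, against 4.48 and 4.51 in Bengal (24.2-fold, SE 0.19 log2, adjusted p = 5.96e-09), and the other members were 5.19-fold to 23.4-fold higher in signal. Against 5.96 the 5 genes were at least 3.71-fold to at least 8.75-fold higher. The longest, a run of 6, with 13 unmeasured genes among them, ran from LOC4350282 (at background in both cultivars) through LOC4350288 (10.3-fold, at least 5.35-fold against 5.96) and LOC4350295 (74.8-fold, at least 39.9-fold) to LOC4350299 (2.28-fold). In the lower direction, LOC4339508, LOC4339507, LOC4339506 and LOC4339505 stood side by side and were 42.1-fold, 43.0-fold, 8.08-fold and 4.86-fold lower: LOC4339508 read 3.6 and 3.52 in Estrela A, against 8.96 and 8.95 in Bengal (adjusted p = 9.26e-12). Against 5.96, LOC4339508, LOC4339507 and LOC4339506 were at least 7.97-fold, 9.99-fold and 4.08-fold lower. LOC4350994, LOC4350996 and LOC4350998 were 15.7-fold, 41.6-fold and 15.7-fold lower, in a run with LOC4350992 (1.34-fold lower), and at least 8.85-fold, 7.44-fold and 4.42-fold lower against 5.96. Nipponbare read low, like Estrela A, for these 3 genes (4.9, 3.93 and 4.0), and high, like Bengal, for LOC4339508 (8.33). The longest lower run held 5 genes, from LOC4345561 (6.3-fold) to LOC4345572 (3.96-fold).

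**Figure D4:**
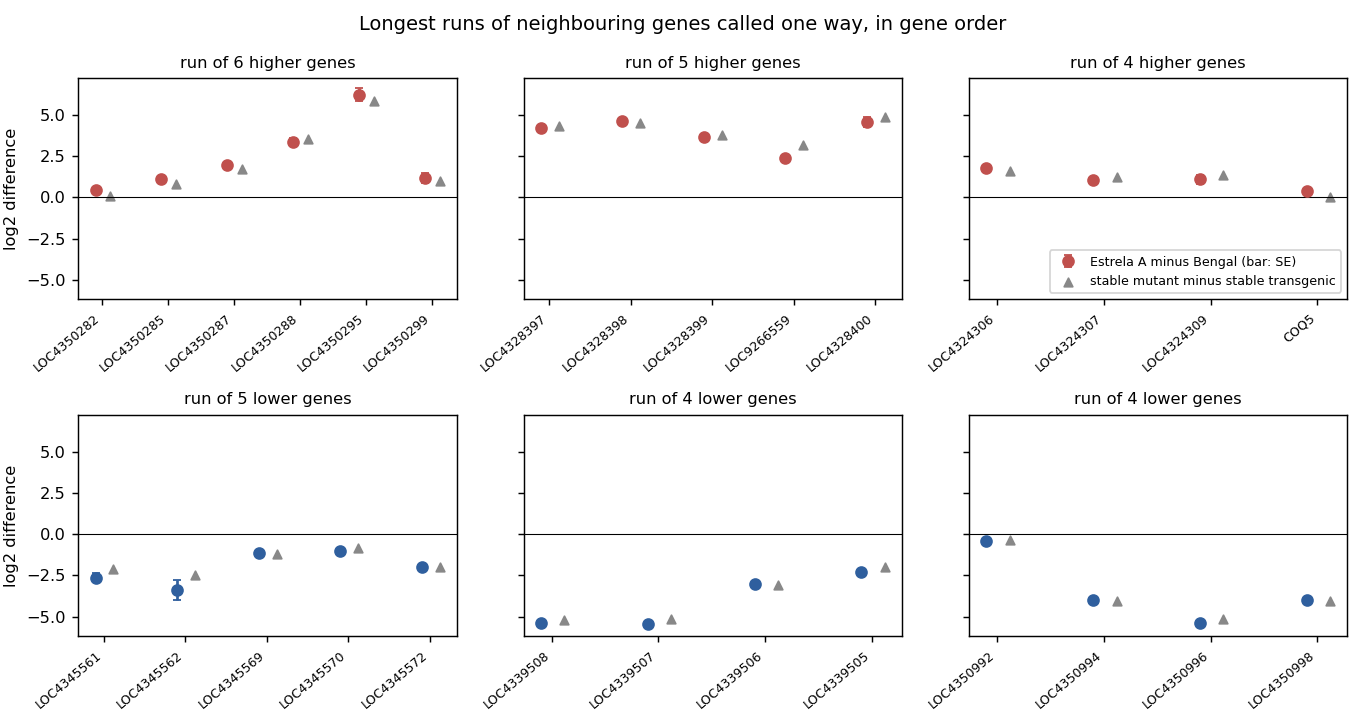
Log2 difference of each gene in the 3 longest runs of neighbouring measured genes called higher (top) and lower (bottom) in Estrela A, in gene order, with circles for Estrela A minus Bengal (bars are standard errors) and triangles for stable mutant minus stable transgenic. LOC4350295 reaches 6.23 and LOC4339507 -5.43 on the control arrays, and the triangles lie near the circles.

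The 4 arrays of the modified lines gave a second reading of the cultivar difference on separate pools, although the variance estimate of the fit is shared. Poly-A spike controls averaged 8.89 and 8.48 on the stable mutant arrays, against 7.79 and 8.41 on the stable transgenic arrays. They were thus higher on the Estrela A side in this pair too, and their part in the agreement below was not tested. Between stable mutant and stable transgenic seedlings, 6836 probe sets were called (12.0%). The count was 4104 without stable mutant replicate 1, 3414 without stable mutant replicate 2, 3803 without stable transgenic replicate 1 and 5124 without stable transgenic replicate 2. Of these, 3419 were also called between the controls, which is 50.0% of the calls between modified lines and 62.9% of the calls between controls. Directions were alike for 3406 of the 3419 and opposite for 13. Of all 5433 calls between controls, 5166 (95.1%) had the same sign between the modified lines. Among large differences, 1520 of 1721 calls past 2-fold (88.3%) and 364 of 371 past 8-fold (98.1%) were called in the same direction. As a description across probe sets, which share arrays and probe sequence, the differences correlated with r = 0.854 over all and r = 0.96 over the calls between controls, with a slope of 0.928 through the origin.

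Several named genes were called the same way again. BURP17 differed by 9.85 log2 between the modified lines, EIL1B by 5.96, OPR10 by 4.04 and APX5 by 3.44, and METK3 by -2.88, AT15 by -3.46 and MADS2 by -2.37. GA20OX2 differed by 1.21 log2 (adjusted p = 0.000262). Among named genes of the controls whose arrays lay apart, AMY1.3 differed by -1.51 log2 and passed (adjusted p = 0.0203). AMY1.1, which had not passed between the controls, differed by -4.67 and passed (adjusted p = 0.0185). Others did not pass: SWEET12 by 0.63 log2 (adjusted p = 0.505), AMY1.4 by -1.1 (0.291), RAB16B by -0.83 (0.328) and RAB16D by -1.14 (0.0892). The test of the difference between the pairs of groups did not pass for SWEET12, AMY1.4, RAB16B and RAB16D (adjusted p from 0.561 to 0.742), and its precision is low at such standard errors. In the photosynthesis list 6 of the 8 rises were called again, the exceptions being LFNR1, which had close arrays (0.23 log2, adjusted p = 0.248), and CHLD (0.1 log2, adjusted p = 0.586). Counts of other lists are set against the share of all 17905 genes called, 14.5% between the controls and 17.4% between the modified lines. Changes in these counts were not tested, and some of them lay near those shares. Antioxidant enzymes, 13 higher and 3 lower between the controls, had 10 higher and 9 lower between the modified lines. Heat shock genes went from 2 and 6 to 5 and 2, and jasmonate genes from 3 and 0 to 2 and 5. Cold, drought and abscisic acid genes went from 6 and 13 to 8 and 13. GRXC15 differed by -0.44 log2 and HSP18.6 by 0.18 between the modified lines, and neither passed. COPT1, higher in Estrela A by 0.76 log2 with an SE of 0.13, differed by -0.23 log2 between the modified lines (adjusted p = 0.305, interaction adjusted p = 0.0611).

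**Figure D5:**
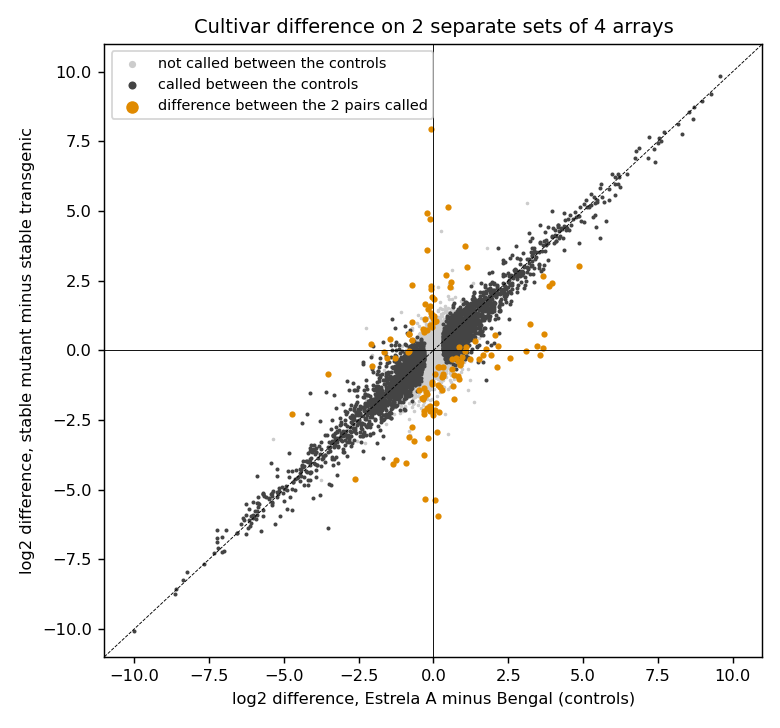
Log2 difference between the modified lines (stable mutant minus stable transgenic, vertical axis) against the log2 difference between the controls (Estrela A minus Bengal, horizontal axis) for 57194 probe sets, with calls between controls in dark grey, probe sets whose difference itself differs between the pairs in orange, and equality as a dashed line. Points with large differences lie near the dashed line, and the 122 orange points depart from it.

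The difference between the 2 readings was itself called for 122 of 57194 probe sets (0.213%), 59 of which were also called between the controls and 63 of which were not. At an unadjusted p below 0.05 there were 5194. With 1 array left out, 62 were called without stable mutant replicate 2, 78 were called without Bengal replicate 1, and 84 to 108 without any other of the 8 arrays. Of the 59, 29 were not called between the modified lines. Among genes with a symbol the interaction named 5. XB3, a ubiquitin ligase that binds the immune receptor XA21, was at background in both controls (4.7 and 5.13 in Estrela A, 4.96 and 4.86 in Bengal). It read 6.79 and 6.82 in the stable mutant, against 5.02 and 4.91, also background, in the stable transgenic line. That difference was 1.84 log2 (interaction adjusted p = 0.00126). WOX6 differed by -0.36 and -1.73 log2, Melibiase by -0.22 and 0.72, and IPP by 0.19 and -0.6, control pair first. PRXIIE-2 was higher in Estrela A than in Bengal by 1.08 log2 and differed by 0.12 log2 between the modified lines (interaction adjusted p = 0.0232). Larger departures were in genes without a symbol. LOC4335593 read 4.52 and 4.3 in Estrela A, against 7.73 and 8.13 in Bengal, but 4.11 and 4.36 in the stable mutant, against 5.33 and 4.79 in the stable transgenic line (interaction adjusted p = 0.00247). LOC4347019 was called in opposite directions, 2.13 log2 higher in Estrela A than in Bengal and 0.59 log2 lower in the stable mutant than in the stable transgenic line (interaction adjusted p = 0.000158). These genes, other than the 5 with a symbol, were chosen after their values were seen.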

How the data were processed

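The study measured RNA of pooled rice seedlings on 14 Affymetrix Rice Genome arrays, 2 in each of 7 groups. Per the labels, the authors ran Robust Multichip Average (RMA) in Partek on all arrays together and deposited log2 signals. Software versions: not given in the sources used here. RMA sets the arrays to a common distribution, so a change shared by most transcripts would not show in these values.

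The deposited table was fitted without further normalization. In limma 3.58.1 (R 4.3.3), lmFit and eBayes took 1 mean per group over all 14 arrays (7 residual degrees of freedom, prior 4.573), without the 187 control probe sets. A probe set was called at a two-sided Benjamini-Hochberg adjusted p below 0.05 over all 57194. Contrasts were Estrela A minus Bengal, stable mutant minus stable transgenic, and their difference. Tables were made with Python 3.11.15, pandas 2.3.3 and numpy 2.4.6, and plots with matplotlib 3.10.9. Genes came from GEO's platform annotation, updated through RefSeq's gene table of another genome build, which was used for names and gene order alone. Of the tested probe sets 22436 had 1 gene, 95 several and 34663 none. Each gene was read by the probe set of highest mean over all arrays. The number of arrays limits the precision.

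Named were the greatest called rises and falls among symbol-bearing genes, up to 12 each way, whose cultivars' arrays did not overlap and whose higher mean was at or above 5.86, up to 4 called members of each list (or 2 of a list without one), 3 identifier-only genes and 3 probe sets without a gene each way, and the 3 longest runs each way. Other called list members are given as examples of their list, and genes with differences past 2-fold that did not pass, or with probe sets called in opposite directions, were chosen after their values were seen. The comparison, the members and the 31 lists were chosen with earlier results of these data known, and 63 symbol matches that did not belong to a list were left out.

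Replicate numbers come from the sample titles. Deviations of same-numbered arrays correlated at 0.112 for the controls and -0.01868 for the modified lines, so the numbers were not taken to pair the arrays. On simulated data with 200 changed probe sets of the 57194, the Estrela A minus Bengal contrast recovered 85% of those changed by 1 log2 and 96% of those changed by 2 log2, with 9 false calls among 190. The simulated noise was independent and normal, with the fitted spread of each probe set and no shift shared by arrays. It checks the working of the fit and cannot give the share of false calls in these data. Alternatives were no variance moderation, a trended robust prior, the arrays of the comparison alone, a filter on dim probe sets, no shared probe sets, cyclic loess, a fold minimum, the replicate block, and leaving out each array. Bounds on a fold, added after seeing the data, are the mean of the brighter cultivar against 5.96 log2, the highest 95th percentile of the reporter probe sets. They are bounds on signal and take the probes to read both cultivars alike. Further bounds were at least 1.33-fold for CAD6, 1.1-fold for AOS3, 1.76-fold for HSP18.6, 1.21-fold for GLN1-3, 2.41-fold for ORC5 and 1.27-fold for AGO17.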

Additional observations from a re-analysis of the deposited data

Results flagged for a closer look

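The cultivar difference of PRXIIE-2, a peroxiredoxin gene among the named list members, differed between the controls and the modified lines. It read 9.98 and 10.11 in Estrela A, against 9.06 and 8.87 in Bengal, a difference of 1.08 log2, while the stable mutant and the stable transgenic line differed by 0.12 log2. The difference between these differences was 0.97 log2 (adjusted p = 0.0232 by limma's interaction contrast over all probe sets). Nipponbare averaged 10.78. The stable lines also differ by mutation, transgene and hygromycin B, and their part was not tested. Groups of 2 arrays are too small for a check of single outlying arrays.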

How the results depend on the processing

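The number of probe sets called between Estrela A and Bengal (5433) lay between 4156 and 5943 under the other fits, filters and scalings, and was 1721 with a 2-fold minimum. Between stable mutant and stable transgenic seedlings (6836) the range was 5211 to 7454, and 1920 with a 2-fold minimum. The 122 calls of the difference between both pairs became 42 without variance moderation and 102 to 174 under the others. With the replicate block the counts were 5079, 6389 and 111, and a check of the pairing is given with the processing. Leaving out 1 array gave 3188 to 3544, 3414 to 5124 and 62 to 108 calls. The share of calls higher in the stable mutant was 46.0% after cyclic loess, against 51.3% as deposited. Of 109 called named items, 63 were called after each single array was left out and 74 under each other setting, none with a turned sign; these checks of named genes and of list counts were added after seeing the data. Among 34 other probe sets of 23 named genes, 15 were called alike, 13 did not pass and 6 had the other sign without passing: PIK6-NP 0.22, IAA3 -0.03, CYP71P1 0.07, RPL27 -0.12, DRM3 0.17 and RAD23 -0.06 log2. Those of like sign that did not pass included OsPRDA1 0.14, OsPP2C75 0.19, HSP18.6 -0.52 and -0.26, CHLH 0.19, SPX4 -0.27 and SSII-2 0.01 and 0.22 log2. With the median over a gene's probe sets, 3195 of 17905 genes were called (17.8%), with 8 higher and 0 lower in the photosynthesis list, 16 and 7 among antioxidant enzymes and 6 and 5 in auxin response. The photosynthesis list had 3 higher with the arrays of the comparison alone and 4 with the block. Counts of other lists moved by over 1.5 times too: MADS and homeobox factors had 4 higher and 3 lower without moderation, nutrient uptake 3 and 4 with the 4 Estrela A and Bengal arrays alone and 1 and 1 without shared probe sets, sugar transport 4 and 4 and phenylpropanoid genes 3 and 1 with the gene median, starch 1 and 1 without shared probe sets, cytochrome P450 0 and 2 without moderation, chitinases 2 and 0 with the dim filter and 0 and 0 after loess, DNA repair 0 and 0 and root markers 0 and 1 with the 4 Estrela A and Bengal arrays alone. Signal over background limits the rest: at or below 5.96 log2 a probe set was no brighter than reporters.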

Other observations

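Nipponbare, the cultivar of the reference genome, sided with neither cultivar throughout. It was more often nearer to Bengal among probe sets at least 2-fold lower in Estrela A. Of 801 probe sets at least 2-fold higher in Estrela A, its mean was nearer to Estrela A for 409 (51.1%), and of 920 at least 2-fold lower ones for 353 (38.4%). RAB16B read 9.18 and 9.23 in Estrela A, against 10.97 and 11.19 in Bengal, while Nipponbare averaged 5.4. OsPIP2;4 and SWEET12, both higher in Estrela A than in Bengal, averaged 10.92 and 4.74 in Nipponbare, above Estrela A for the aquaporin gene and below Bengal for the sugar transporter gene.

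NAS1 and NAS2, which make the iron chelator nicotianamine, averaged 11.76 and 12.6 in Nipponbare, above every Estrela A and Bengal array. Between Estrela A and Bengal neither passed by limma (adjusted p = 0.0585 for NAS1 and 0.222 for NAS2). BHLH063, an iron-response regulator gene, was 1.72-fold lower in Estrela A than in Bengal by limma (adjusted p = 0.00645). The BHLH063 call was lost without Bengal replicate 2 or Estrela A replicate 1.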
